A study of Mus musculus with 670 samples.

Results

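Cartilage and fibrous connective tissue both lie in the long bones of a newborn mouse, and single cells sorted there by flow cytometry as skeletal stem cells, the source of the skeleton's tissues, were divided here by 1 gene. Cnmd, which encodes chondromodulin, a membrane glycoprotein of cartilage, was read in each cell as CPM, the gene's reads scaled to a fixed total of gene reads per cell (spike-ins left out). Of the 95 wells of postnatal day 3, among 670 wells in the series, 68 passed the limits of 1000 genes or more, 50000 gene reads or more and a mitochondrial share below 20%. The classes were selected on the measured Cnmd level: cells at 10 CPM of Cnmd or more were called positive, which chose 42 cells, and cells with 0 Cnmd reads were called negative, which chose 26. A cell with reads under 10 CPM would have been left out, and there were 0 of those. The lowest positive cell stood at 614 CPM, the median at 5354 and the highest at 15956, so the limit of 10 CPM fell in a gap and the level of Cnmd itself is a description of how the classes were made.

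The cells came from untreated male mice, by their labels, and went from the bone to the SmartSeq2 library (a full-length RNA sequencing method without molecular identifiers) without culture. All 68 lay on plate 9, labelled batch 3, and both classes were spread over it, with 21 positive cells in columns 1 to 12 and 21 in columns 13 to 24, and 14 and 12 negative cells. The labels name no strain, no animal and none of the antibodies of the sort. The plate is therefore 1 sample, cells are not replicates, and no p-value is given: a difference is described by its size. Intervals on shares of cells are exact 95% binomial (Clopper-Pearson) and cover counting error only. For a count of 0 cells their upper bounds are 8.41% of positive and 13.2% of negative cells; the simpler limit of 3 cells is 7.14% and 11.5%. Both classes were read to a like depth, with a median of 1100490 gene reads in positive cells (93214 to 2246140) and 1092720 in negative cells (168338 to 2153600), and with medians of 2214.5 and 2272 genes.

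Chondrocytes, the cells of cartilage, fill the space around them with fibrils of collagen II, to which collagens IX and XI are joined, and with the proteoglycan aggrecan, whose sulfated sugar chains hold water. The transcription factor SOX9, with SOX5 and SOX6, drives these matrix genes. In the newborn limb such cells form the growth plates, where they divide, enlarge and are replaced by bone, and the joint surfaces, where lubricin coats the tissue. Fibrous tissues around the bone, such as periosteum, tendon and fascia, are built instead from collagens I and III, periostin and elastic microfibrils.

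Stretches just upstream of the start sites of 4 genes whose levels separate the classes are shown first, because Cnmd made the classes and the other 3 differ widely between them. Each is the 250 bases before the RefSeq start, on GRCm38.p6. Cnmd, which chose the classes, and Matn3, a cartilage matrilin with 0 reads in all negative cells, are followed by Aspn, with 0 reads in all positive cells, and Postn. Capitals mark TATAAA, the core of a TATA box, on either strand (TTTATA is its reverse complement). The 6-base cores ACAAAG and ACAATG that SOX proteins bind were searched in the same way, with CTTTGT and CATTGT on the other strand, and neither occurs in these 4 windows. The motifs do not overlap each other.

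Cnmd, chr14:79662184-79662433, minus strand: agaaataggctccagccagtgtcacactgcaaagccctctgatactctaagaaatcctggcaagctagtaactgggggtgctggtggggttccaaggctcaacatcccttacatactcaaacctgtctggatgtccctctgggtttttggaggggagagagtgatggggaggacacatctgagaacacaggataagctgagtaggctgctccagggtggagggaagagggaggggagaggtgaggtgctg

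Matn3, chr12:8947679-8947928, plus strand: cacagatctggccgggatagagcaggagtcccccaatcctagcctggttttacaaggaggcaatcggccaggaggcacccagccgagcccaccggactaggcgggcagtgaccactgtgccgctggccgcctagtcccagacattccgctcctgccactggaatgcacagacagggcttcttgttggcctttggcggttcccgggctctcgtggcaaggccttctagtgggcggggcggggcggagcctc

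Aspn, chr13:49544193-49544442, plus strand: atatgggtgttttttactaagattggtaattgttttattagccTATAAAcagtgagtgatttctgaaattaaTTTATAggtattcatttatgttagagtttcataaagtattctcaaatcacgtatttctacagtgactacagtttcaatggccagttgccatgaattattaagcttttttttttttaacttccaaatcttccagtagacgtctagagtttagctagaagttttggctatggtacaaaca

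Postn, chr3:54360857-54361106, plus strand: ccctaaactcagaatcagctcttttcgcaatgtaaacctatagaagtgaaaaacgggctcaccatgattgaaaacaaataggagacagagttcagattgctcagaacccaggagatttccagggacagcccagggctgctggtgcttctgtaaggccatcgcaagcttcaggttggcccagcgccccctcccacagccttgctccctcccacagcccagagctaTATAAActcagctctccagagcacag

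The match in Postn begins 26 bases before the start, and the 2 matches in Aspn lie farther upstream. A TATAAA match on either strand lay in 12.9% of 27025 promoters of this length, in 5.87% of the promoters of tested genes, in 4.57% of those of genes higher in positive cells and in 9.31% of those of genes lower in them. For the SOX cores these shares were 25.5%, 15.9%, 16.9% and 15.8%. Of the 24 genes of cartilage matrix listed below, 18 had a promoter in the table, and 2 of them (11.1%) held a SOX core. A TATAAA match lay in 3 of these 18 (16.7%). Of the 28 fibrous matrix and elastic fibre genes, 19 had a promoter, 2 of them (10.5%) with a SOX core and 4 (21.1%) with TATAAA. Both groups thus held TATAAA in a larger share than tested genes did. Letters that match are not shown to be bound.

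A set of 3 negative cells stood apart from the other 23 and are named before the results. They are the negative cells at 10 CPM or more of Col9a1 (K17), Sox10 (C11) or Myh11 (C09). K17 was thus picked by a cartilage gene, so higher cartilage folds without the 3 cells follow in part from that choice. Well K17 held 15 of 24 cartilage matrix genes at 10 CPM or more, with Col2a1 at 37213 CPM, but 0 reads of Cnmd, Postn, Aspn and Col1a1. Well C11 held the Schwann cell gene Sox10 at 1183 CPM. Well C09 held the smooth muscle genes Acta2 at 52808 CPM and Myh11 at 3912 CPM. None of the 3 had a read of Postn, whereas each of the other 23 negative cells stood at 897 CPM of Postn or more. Other cell types were scarce in both classes. Of 5 endothelial, 6 blood cell and 6 erythroid markers, 0 reached a mean of 10 CPM in either class, and Ptprc, Cdh5 and Emcn had 0 reads in every cell. All wells are labelled male, yet Xist, the RNA of the inactive X chromosome of females, had reads in 19 of 42 positive cells (45.2%, 29.8% to 61.3%) and in 3 of 26 negative cells (11.5%, 2.45% to 30.2%). Genes of the Y chromosome had reads in 8 and 3 cells, both kinds in 1 and 0, and neither in 16 and 20. The part of sex in the differences below was not tested, and counts of calls without Xist-bearing cells are given beside the main ones.

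The question was which genes went with Cnmd among newborn cells. Class values are means of CPM over cells, and the log2 fold is the ratio of the 2 means with 1 CPM added to each, which understates the fold of low genes. A gene was past the rule of size on 3 conditions: a mean of 10 CPM or more in the higher class, a ratio of 2 or more between the means, and a read in 25% or more of the higher class's cells once each cell was thinned to 50000 reads. Of 9425 genes tested, with Cnmd left out, 11.6% were past the rule: 498 were higher in positive cells (5.28%) and 596 lower (6.32%). The median log2 fold of all tested genes was -0.05. Of these calls, 16 genes higher in positive cells had 0 reads in all 26 negative cells, and 12 lower genes had 0 reads in all 42 positive cells. Leaving out K17, C11 and C09 gave 551 higher and 656 lower, and leaving out cells with an Xist read (23 and 23 cells remained) gave 611 and 756. Of the 498 higher and 596 lower calls, 462 and 534 were kept without the 3 cells, and 384 and 475 without Xist-bearing cells.

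**Figure D1:**
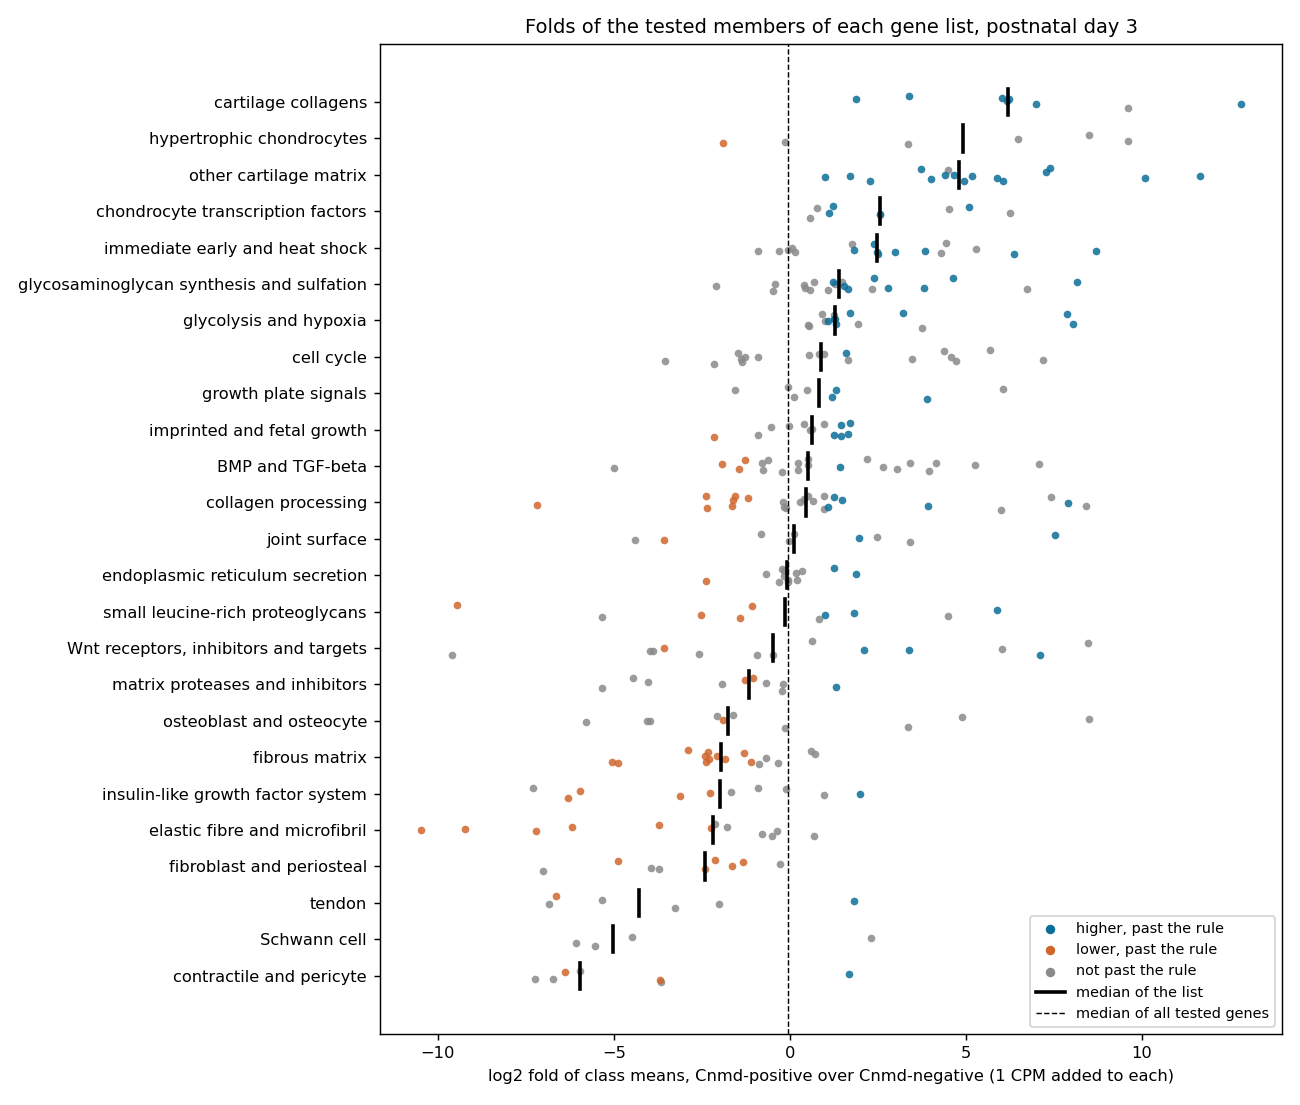
Log2 folds (x axis, Cnmd-positive over Cnmd-negative class means) of the tested members of each gene list (rows), with the median of each list as a bar and that of all 9425 tested genes, -0.05, as a dashed line. The medians run from 6.20 for cartilage collagens to -5.97 for contractile and pericyte genes, which became -1.93 without the 3 negative cells that stood apart, one of which holds smooth muscle genes. Cnmd is not plotted.

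The collagens of cartilage were the group that went furthest with Cnmd. Of 8 genes 7 were past the rule as higher and 0 as lower, with a median log2 fold of 6.20. Without the 3 cells that stood apart the median was 11.27, a value set in part by the added 1 CPM, since several of these genes then had 0 reads in the negative class. Col2a1, the chain of collagen II (chromosome 15, 97975602 to 98004695, minus strand), ranged from 15170 to 195746 CPM in positive cells with a median of 90909, and from 0 to 37213 CPM in negative cells with a median of 0. Among negative cells 2 held a read of it, K17 and G01, the latter at 803 CPM, so the lowest positive cell lay above every negative cell but K17. The mean was 94881 against 1462 CPM, a log2 fold of 6.02, and 11.37 without the 3 cells that stood apart. That rise follows from leaving out K17, which was picked by another cartilage collagen.

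The 3 chains of collagen IX, which decorates the surface of collagen II fibrils, gave the same split. Col9a1 (chromosome 1, 24177610 to 24252684) had reads in 41 of 42 positive cells, with a median of 4707 and a highest value of 13214 CPM, and among negative cells it had reads in K17 alone, at 1800 CPM. Col9a2 ranged from 7.89 to 13054 CPM in positive cells (median 2634) and was found in K17 alone among negative cells, at 698 CPM. Col9a3 had a median of 6088 and a highest value of 19183 CPM in positive cells, with 1 positive cell at 0, whereas the highest of the negative cells stood at 1.14 CPM. The fibril collagen Col11a2 was at 42.9 to 7552 CPM in positive cells (median 2970) and in 2 negative cells. Its partner Col11a1 was less confined: it had reads in all positive cells, from 794 to 14791 CPM, and in 14 of 26 negative cells, with medians of 4847 and 371 CPM. Col27a1, another fibril collagen of cartilage, was at 311 against 28.7 CPM. Col10a1, the collagen of enlarged (hypertrophic) chondrocytes, was not past the rule, with reads in 2 positive cells and 0 negative cells.

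**Figure D2:**
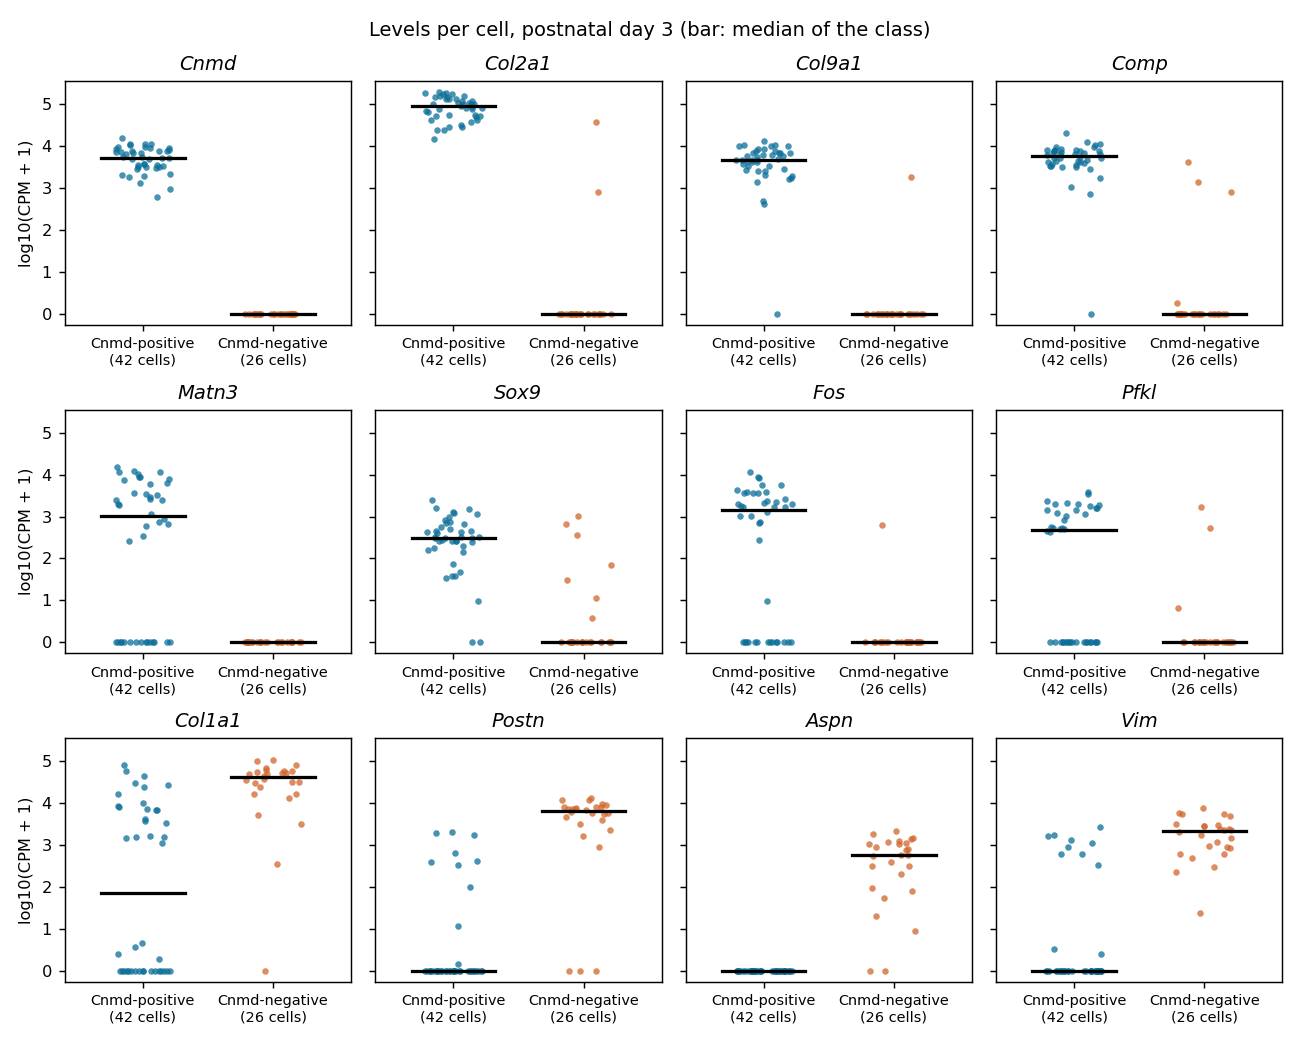
Levels of 12 genes in each cell (y axis, log10 of CPM + 1), for 42 Cnmd-positive and 26 Cnmd-negative cells, with bars at the class medians and points moved sideways to show overlaps. Cnmd chose the classes. Col2a1 lies between 15170 and 195746 CPM in positive cells and at 0 in all but 2 negative cells, while Aspn is at 0 in every positive cell.

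Of the other 16 genes of cartilage matrix 15 were higher in positive cells and 0 were lower (median log2 fold 4.80, and 7.06 without the 3 cells). Comp, a pentameric glycoprotein that binds collagen fibrils, had reads in 41 of 42 positive cells, with a median of 5746 and a highest value of 20190 CPM, and in 4 of 26 negative cells. Acan, the core protein of aggrecan, had a median of 688 CPM and a highest value of 5159 CPM in positive cells. It also had reads in 10 of 26 negative cells, up to 1802 CPM, so the classes overlapped, and its means were 1178 and 241.4 CPM (log2 fold 2.28). Hapln1, the link protein that ties aggrecan to hyaluronan, was at 767 against 56.9 CPM. Ucma, a Gla-rich protein of the upper growth plate, was at 1729 against 9.35 CPM, with reads in 34 positive cells and in K17. Chad, a leucine-rich protein that binds cells to collagen, was at 1633 against 26.6 CPM. Susd5 was at 1751 against 81.7 CPM, Scrg1 at 141.3 against 2.98 CPM and Snorc, a transmembrane proteoglycan of chondrocytes, at 76.5 against 0.18 CPM.

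Some matrix genes were absent from every negative cell. Matn3 (chromosome 12, 8947929 to 8972028) had reads in 27 of 42 positive cells (64.3%, 48.03% to 78.4%), with a median of 1023 and a highest value of 15459 CPM. Matn1, another matrilin, had reads in 13 of 42 cells, up to 9601 CPM, and Mia, a small secreted protein of cartilage, was at a mean of 153.7 CPM with reads in 36 cells after thinning. None of the 3 had a read among the negative cells, K17 included. The weakest call of the group was Prelp, a leucine-rich proteoglycan, at 1577 against 785 CPM, which fell short of 2-fold under 7 of 13 alternatives. Of these 13, other Cnmd limits gave identical classes and could not remove a call. Nor could a lower gene minimum or no minimum share of cells, which only loosened the rule.

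Among the regulators of this matrix, 4 of 9 chondrocyte transcription factors were higher and 0 lower (median log2 fold 2.55). Sox9 (chromosome 11, 112782224 to 112787760) had reads in 40 of 42 positive cells, with a median of 315 and a highest value of 2526 CPM, and in 7 of 26 negative cells, up to 1023 CPM. Its means were 495 and 82.8 CPM, a log2 fold of 2.56. Sox6 was at 92.5 against 1.78 CPM. Sox5, at 182.03 against 107.1 CPM, and Sox8, at 75.7 CPM against 0 reads but in only 11.9% of positive cells, were not past the rule. Trps1, a zinc finger repressor of the growth plate, was at 179.3 against 76.5 CPM, and Shox2, a homeobox factor of the proximal limb, at 98.7 against 45.5 CPM. Shox2 lost its call under 4 of 13 alternatives (log2 folds 0.28 to 0.97), and Sox6 lost it, by the share of cells, without Xist-bearing cells. Without the 3 cells that stood apart the log2 fold of Sox5 was 7.52 in place of 0.76. Of the factors below 10 CPM in both classes, Nkx3-2 was at 4.85 CPM in positive cells and 0 in negative cells, and Foxa2 had a mean of 0.02 CPM.

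Signals and receptors of the growth plate were mostly at similar levels or rare, with 3 of 8 tested genes higher and 0 lower (median 0.84). Fgfr3, the receptor that restrains chondrocyte division, was at 150 against 9.14 CPM, and Fgfr2 at 439 against 190.9 CPM. Npr2, the receptor for C-type natriuretic peptide, was at 219.4 against 87.1 CPM. Fgfr2 and Npr2 each fell short of 2-fold under 3 of 13 alternatives (log2 folds 0.53 to 0.92 and 0.56 to 0.97). Pth1r, the receptor for parathyroid hormone and its related peptide, was at 188.3 against 193.7 CPM. Ihh, the hedgehog ligand of the growth plate, had a mean of 0.15 CPM in positive cells and 0 reads in negative cells, and Nppc had 0 reads in both. Markers of hypertrophy were found in a few cells: of 6 tested genes 0 were higher and 1, Alpl, was lower. Alpl, the alkaline phosphatase of mineralizing cells, was at 194.2 against 727 CPM, with reads in 2 positive cells and 7 negative cells. The 2 positive cells with Alpl were the same 2 that held Col10a1. The call of Alpl ended without its highest cell (log2 fold -0.83).

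Enzymes that build the sulfated sugar chains of aggrecan went with the matrix in part, with 8 of 20 tested genes higher and 0 lower (median 1.38). Papss2, which makes the activated sulfate donor, was at 283.4 CPM with reads in 20 of 42 positive cells after thinning and had 0 reads in negative cells. Slc26a2, the sulfate importer, was at 387 against 123.7 CPM. Chst11, a chondroitin sulfotransferase, was at 110.9 against 3.49 CPM, and Xylt1, which starts the chains, at 104.96 against 19.3 CPM. Csgalnact1 was at 299 against 42.7 CPM, and Slc35d1, a nucleotide sugar transporter, at 77.5 against 4.58 CPM. Ugdh, which makes a sugar precursor, was at 652 against 403 CPM and was not past the rule.

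Enzymes that modify and join collagen were split between the classes, with 5 of 24 tested genes higher and 7 lower (median 0.45). Loxl3, a cross-linking oxidase, was at 1375 against 89.4 CPM, and Pcolce2, an enhancer of procollagen cleavage, at 257.9 against 0.08 CPM. The prolyl hydroxylase subunits P4ha1 and P4ha2 were at 499.5 against 209.9 CPM and at 1147 against 407 CPM, and each fell short of 2-fold under 2 alternatives. Lower in positive cells were the oxidases Lox, at 51.9 against 267.6 CPM, and Loxl1, at 74.9 against 396 CPM, and the enhancer Pcolce, at 496 against 1529 CPM. Adamts2, which trims fibrillar procollagens, had 0 reads in positive cells and a mean of 144.6 CPM in negative cells. Serpinh1, the collagen chaperone, was at 919 against 1054 CPM, and the general folding and secretion genes of the endoplasmic reticulum showed 2 higher and 1 lower of 14 (median -0.10).

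Immediate early genes, whose transcripts appear within minutes of many stimuli, were higher in positive cells for 8 of the genes listed and not for the rest. Of the 17 tested genes of this list, which also holds heat shock genes, 8 were higher and 0 lower (median log2 fold 2.47, and 4.44 without K17, C11 and C09). Fos had reads in 28 of 42 positive cells (66.7%, 50.5% to 80.4%), with a median of 1457 and a highest value of 11568 CPM. Among negative cells it had reads in K17 alone, at 638 CPM. Egr1 was at a mean of 780 against 147.8 CPM, and of the negative reads K17 held most, at 3593 CPM. Ier2 was at 477 against 85.4 CPM, Junb at 292 against 36.4 CPM and Jun at 581 against 165.1 CPM. Nr4a1, an orphan nuclear receptor, was at 414 CPM with 0 reads in negative cells. Dusp1, at 245.3 against 253.6 CPM, Klf4, at 62.7 against 60.6 CPM, and the chaperone Dnajb1, at 69.9 against 86.9 CPM, were not past the rule, nor was Klf6, at 147.7 against 278.2 CPM, so the members did not all differ between the classes.

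Glycolysis genes were also higher in part, with 8 of 15 tested genes higher and 0 lower (median 1.27). Pfkl, a phosphofructokinase subunit, was at 788 against 84.9 CPM, with reads in 54.8% against 11.5% of thinned cells. Bnip3, a hypoxia-induced mitochondrial protein, was at 261.2 CPM with reads in 24 of 42 positive cells after thinning and in 0 of 26 negative cells. Pkm, pyruvate kinase, was at 1790 against 739 CPM and Eno1 at 1709 against 692 CPM, the latter with a log2 fold of 0.48 in cells without an Xist read. Ldha, lactate dehydrogenase, was at 3418 against 1604 CPM (log2 fold 1.09) and fell short of 2-fold under 5 of the alternatives. Gapdh was at 1166 against 805 CPM and was not past the rule.

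On the other side stood the fibrous matrix. Of 16 genes 0 were higher and 11 lower in positive cells, with a median log2 fold of -1.95. Postn, the matricellular protein periostin (chromosome 3, 54361109 to 54391037), had a median of 6497 and a highest value of 12907 CPM in negative cells. Positive cells had a median of 0 and a highest value of 2058 CPM, and 10 of 42 held any read. Col1a1, a chain of collagen I, ranged from 0 to 105857 CPM in negative cells, with a median of 42159, and from 0 to 82685 CPM in positive cells, with a median of 555. Positive cells were divided in this gene, since 21 of 42 held it at 10 CPM or more. Col3a1 was at 701 to 74518 CPM in negative cells (median 29219) and at 0 to 13355 CPM in positive cells (median 3326), so it was found in all negative and in 33 positive cells. Col12a1, Col14a1, Thbs2, Dpt and the collagen V chains were lower too. Fn1, at 2456 against 1505 CPM, Tnc, at 812 against 1289 CPM, and Sparc, at 18101 against 12004 CPM, were not past the rule.

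Elastic fibre and microfibril genes showed 0 higher and 6 lower of 12 (median -2.18). Mfap4 and Mfap5, microfibril proteins, had means of 1433 and 594 CPM in negative cells and 0 reads in all 42 positive cells. Fbln2, a fibulin, was at 7.81 against 1298 CPM, Eln, elastin itself, at 8.39 against 683 CPM and Fbn1, fibrillin 1, at 47.7 against 634 CPM. The small leucine-rich proteoglycans, which coat collagen fibrils, were divided between the classes, with 3 higher and 4 lower of 10 (median -0.13). Aspn (chromosome 13, 49544443 to 49567565), which encodes asporin, had 0 reads in every positive cell and reads in 24 of 26 negative cells, with a median of 577 and a highest value of 2196 CPM. Dcn, decorin, was at 406 against 2338 CPM and Lum, lumican, at 583 against 1238 CPM, with a log2 fold of -0.98 under TMM scaling and -0.92 without its highest cell. Fmod, fibromodulin, was on the opposite side at 12685 against 3623 CPM, with medians of 14720 and 923 CPM, and Bgn, biglycan, was at 7123 against 4044 CPM.

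**Figure D3:**
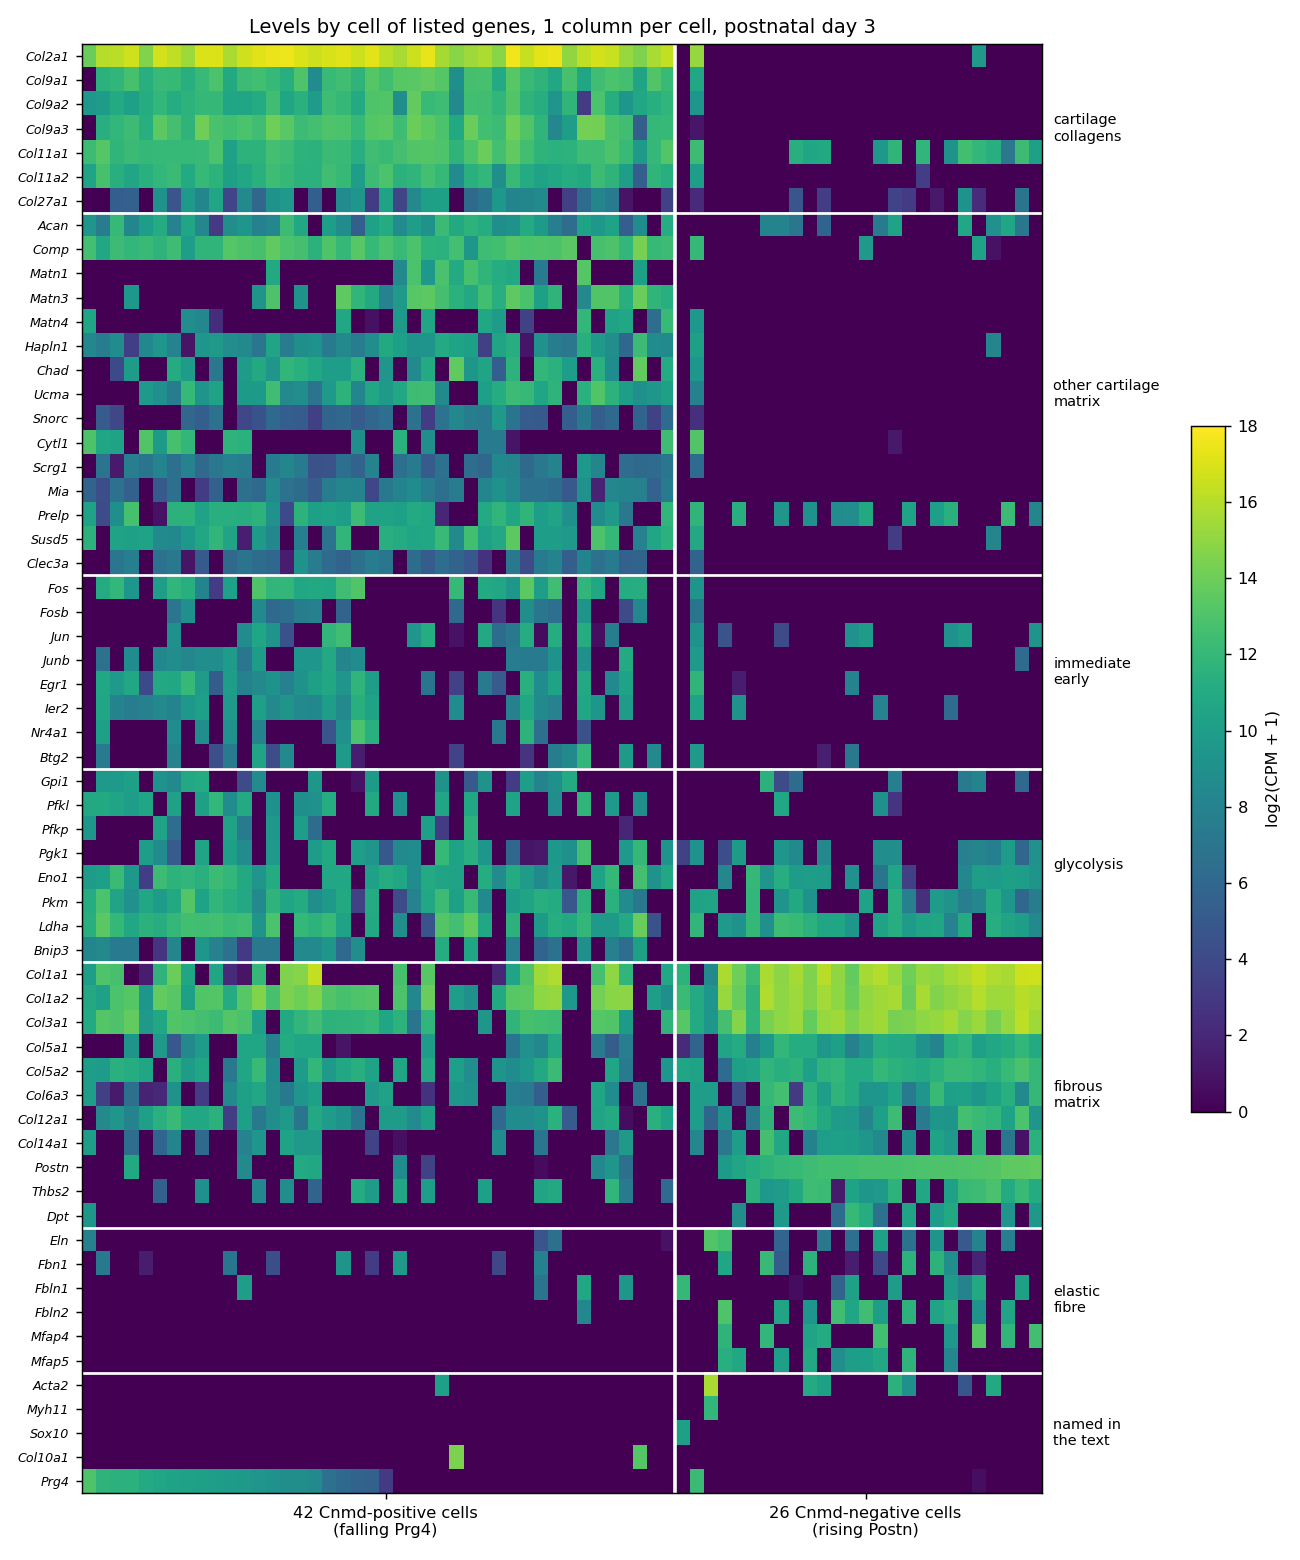
Levels (colour, log2 of CPM + 1) of genes of 6 lists that were past the rule, and of 5 other genes named in the text, in 42 Cnmd-positive cells ordered by falling Prg4 and 26 Cnmd-negative cells ordered by rising Postn. The second negative column is K17, with cartilage matrix and immediate early genes, and its neighbours on the left and right are the cells with Sox10 and with Myh11.

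Growth factor genes differed by member rather than by family. Igf1, insulin-like growth factor 1, was at 7.53 against 535 CPM, and its binding proteins Igfbp6 and Igfbp4 at 10.9 against 938 CPM and 87.5 against 767 CPM, so that of 10 genes of this system 4 were lower and 1 was higher. The 1 higher was the receptor Igf1r, at 265.2 against 65.6 CPM. Igf2, the fetal ligand, was at 1809 against 3373 CPM and not past the rule, with medians of 1637 and 1495 CPM and 1 negative cell at 38019 CPM. Among imprinted genes 5 of 13 were higher, among them Cdkn1c, a cell cycle inhibitor, at 1555 against 567 CPM and Peg3 at 2513 against 1050 CPM, and 1 was lower, the glypican Gpc3, at 264.3 against 1184 CPM. Peg3 fell short of 2-fold under 2 alternatives (log2 fold 0.97 in each).

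Of 21 tested genes of BMP and TGF-beta signalling, 1 was higher and 3 were lower (median 0.51). Tgfb3 was at 248.99 against 947 CPM, Tgfb2 at 35.5 against 97.6 CPM and the receptor Tgfbr2 at 116.004 against 282.7 CPM, while the ligand Gdf10 was at 173.5 against 63.7 CPM. Tgfb2 and Tgfbr2 fell short of 2-fold without their highest cell (log2 folds -0.97 and -0.96), and Gdf10 lost its call without Xist-bearing cells. Secreted Wnt inhibitors went both ways. Wif1 was at 3169 against 737 CPM, with reads in 29 positive and 3 negative cells. Frzb had a mean of 137.1 CPM and Sfrp1 one of 287.6 CPM in positive cells, against 0 reads and 26.6 CPM. Dkk3 was at 106.01 against 1273 CPM, and Sfrp4 had a mean of 765 CPM in negative cells and 0 reads in positive cells, but in only 19.2% of negative cells and so not past the rule.

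The 15 highest and 15 lowest folds were also listed, among genes past the rule at 50 CPM or more and with a read in at least 40% of thinned cells of the higher class. Beside the matrix genes already given, the highest held Fam180a, at 436 CPM, Lgr6, an R-spondin receptor, at 316 CPM, Chadl, a relative of chondroadherin, at 245.8 CPM, and Fry, at 85.1 CPM, each with 0 reads in all 26 negative cells. Gpc6, a glypican, was at 473 against 2.35 CPM and Fbln7, a fibulin, at 395 against 1.83 CPM. The lowest held the actin-binding peptide Tmsb4x, at 1.61 against 238.5 CPM, with reads in 2 of 42 and 21 of 26 thinned cells. Nbl1, a BMP antagonist, was at 3.63 against 405 CPM and Col4a1, a basement membrane collagen, at 2.50 against 303 CPM. Aqp1, a water channel, was at 17.6 against 758 CPM, Tppp3 at 19.5 against 803 CPM and Spon2 at 51.1 against 1767 CPM. Antxr1, a collagen-binding receptor, was at 11.6 against 393 CPM. Ptn, pleiotrophin, had a median of 286.8 CPM in negative cells and 0 in positive cells. Lgals1, a galectin, had reads in all negative cells, from 55.9 to 10006 CPM, against a median of 28.3 and a highest value of 369 CPM in positive cells.

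Negative cells shared a fibrous core and differed beyond it. In the 23 cells that did not stand apart, Col1a1, Col3a1, Postn, Vim and Lgals1 were at 10 CPM or more in all 23, Aspn in 22 and Dcn in 21. Of the cartilage genes some were nearly missing and some were not. Col2a1 was at 10 CPM or more in 1, Comp in 2 and Sox9 in 5, whereas Acan was in 10, Prelp in 11 and Col11a1 in 13. Col9a1, the gene by which K17 was set apart, had 0 reads in all 23, which largely follows from that choice. Over all 26, the tendon glycoprotein Tnmd was at 10 CPM or more in 7 cells, and 5 of these 7 also held Kera, a proteoglycan of tendon and cornea, and 5 held Thbs4. The microfibril gene Mfap5 was in 10 cells, of which 3 held Tnmd and 8 held Dpt, dermatopontin. Alpl was in 7 cells, of which 0 held Tnmd, 0 held Mfap5 and 3 held Sp7, the osteoblast transcription factor. Acta2 was in 7 cells, of which 3 held Tagln. These pairs were chosen after their values were seen and are given as counts. Of 9 tested fibroblast and periosteal genes 5 were lower in positive cells and 0 higher (median -2.41), of 6 tendon genes 1 was lower and 1 higher, and of 10 osteoblast genes 1 was lower and 0 higher. The osteocyte genes Dmp1, Phex and Sost had 0 reads in both classes, as did the marrow stroma gene Lepr and the surface marker Thy1. Runx2, the osteoblast regulator, was at 26.02 against 28.5 CPM.

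Positive cells shared most of the cartilage collagens and differed from each other in other genes. Each held 4 to 7 of the 8 cartilage collagens at 10 CPM or more (median 7) and 7 to 15 of the 16 other matrix genes (median 11). Prg4, the gene of the joint lubricant lubricin, was at 10 CPM or more in 21 of 42 cells, and Matn3 in 27. The pair was found together in 7 cells, Prg4 without Matn3 in 14, Matn3 without Prg4 in 20, and neither in 1. Matn1 was found in 13 cells, all of which held Matn3 and 1 of which held Prg4. Across the 42 cells Spearman's rho of Prg4 with Matn3 was -0.71 and of Prg4 with Wif1 0.50, given as a description of cells from 1 plate.

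**Figure D4:**
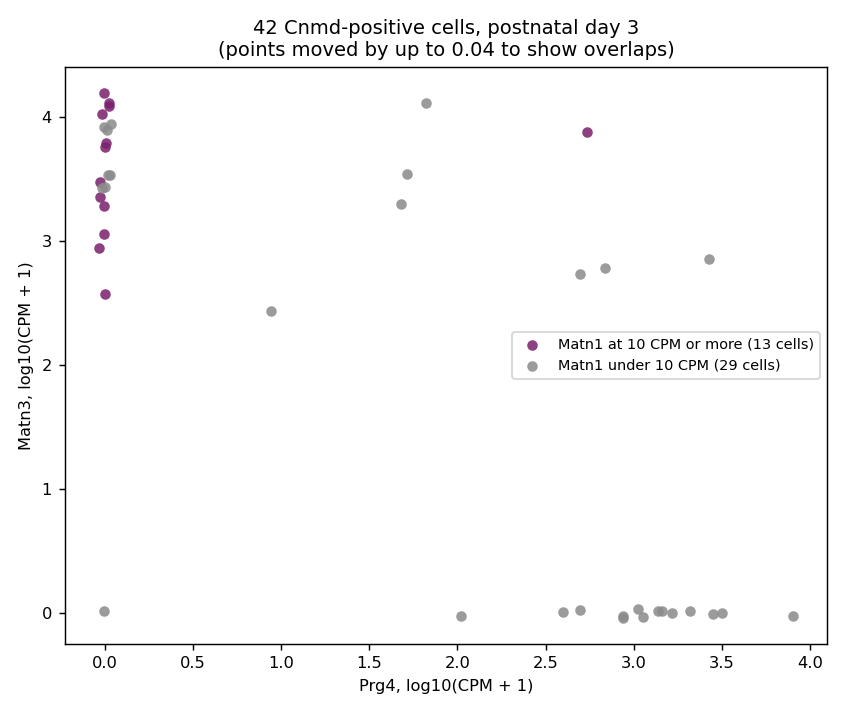
Prg4 (x axis) against Matn3 (y axis) in the 42 Cnmd-positive cells, both as log10 of CPM + 1, coloured by Matn1. Of the cells, 14 hold Prg4 without Matn3, 20 hold Matn3 without Prg4 and 7 hold both; the 13 cells with Matn1 all hold Matn3.

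The 18 positive cells at 100 CPM of Prg4 or more and the 24 below it are set side by side, at a limit chosen after the values were seen. Cnmd was at 614 to 11068 CPM (median 3383) in the first and at 934 to 15956 CPM (median 7394) in the second, so the ranges overlapped. Matn3 had medians of 0 and 3415 CPM, and was at 10 CPM or more in 4 of 18 against 23 of 24 cells. Wif1 had medians of 4013 and 370 CPM, and Ucma medians of 492 and 1643 CPM. Col2a1, with medians of 105138 and 81934 CPM, and Sox9, with 310 and 321 CPM, were close. Spearman's rho of Cnmd with Matn3 was 0.54, with Col9a1 0.54 and with Prg4 -0.46 over the 42 cells, against 0.09 with total reads and 0.17 with the number of genes. With Col2a1, Acan and Sox9 the rho of Cnmd was 0.16, 0.12 and 0.22, so not all cartilage genes followed its level. Prg4 over both classes was at 731 against 186.6 CPM, and of the negative reads nearly all lay in K17, at 4852 CPM; its log2 fold of 1.96 became 9.48 without the 3 cells that stood apart and 0.81 in cells of at least 2000 genes and 200000 reads. Of the 9 tested joint surface genes, 2 were higher (Prg4 and Clu), 1 was lower (Dkk3) and the median was 0.10. Gdf5, a joint growth factor, was in 8 positive cells, of which 3 held Prg4.

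The same classes were made on the 3 plates of male mice of 2 months, cells that the newborn rule did not use. Plate 1 gave 7 positive and 8 negative cells, plate 3 gave 50 and 18, and plate 4 gave 49 and 16, with 0, 2 and 4 cells between. Age, plate and batch cannot be told apart here, and no difference between ages was tested. Over all calls, the share of newborn genes on the same side lay near that of all genes on the plate. Of the genes higher in newborn positive cells and at 10 CPM or more on the plate, 79.4% of 379, 38.4% of 487 and 51.4% of 484 were at least 2-fold higher on plates 1, 3 and 4, against 70.2%, 44.5% and 46.2% of all genes there. Of those lower, 21.2% of 364, 26.5% of 551 and 34.2% of 549 were at least 2-fold lower, against 21.9%, 27.9% and 28.5% of all genes. The medians of all genes on these plates were 4.38, 0.56 and 0.65, so folds on plate 1 are read against a high base.

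Most cartilage matrix genes were higher in positive cells on each plate, with exceptions. Among cartilage collagens this held for 7 of 7, 8 of 8 and 7 of 8 measured genes on plates 1, 3 and 4, the exception being Col10a1 on plate 4. Among other cartilage matrix genes it held for 12 of 15, 13 of 16 and 15 of 16. These counts take any fold above 0. Of all genes, 70.2%, 44.5% and 46.2% were at least 2-fold higher on plates 1, 3 and 4, a stricter limit. The share of all genes above 0 was not computed and is at least as large. The median of all genes lay above 0 on all 3 plates. The counts alone therefore do not set these genes apart from others. Cytl1 was on the opposite side on all 3 plates (log2 folds -3.93, -1.14 and -0.59), Clec3a on plates 1 and 3, Susd5 on plate 1 and Prelp on plate 3. The median log2 fold of cartilage collagens was 7.08, 3.57 and 3.55 on plates 1, 3 and 4, and that of other cartilage matrix genes 9.35, 2.21 and 2.33, each above the median of all genes of its plate. Col2a1 was at 64861 against 283.1 CPM, 57140 against 9036 CPM and 68153 against 3320 CPM. Negative cells of plates 3 and 4 thus held more Col2a1 than the 1462 CPM of the newborn negative cells. Matn3 was at 5342, 3724 and 3352 CPM in positive cells against 0, 0 and 542 CPM. The fibrous side was less alike in sign. The median of fibrous matrix was 3.23, -0.12 and -1.41, each below the median of all genes of its plate (4.38, 0.56 and 0.65). On the newborn plate it was also below, at -1.95 against -0.05. Aspn, Mfap4 and Tnmd stayed below 10 CPM in both classes on all 3 plates, so their newborn contrast could not be compared there. Postn was at 0.18 against 116.1 CPM on plate 3 and 0.10 against 61.8 CPM on plate 4. Prg4 was at 10.01 against 2965 CPM, 3639 against 12434 CPM and 4433 against 4274 CPM, so on plates 1 and 3 it was higher in the negative class, unlike in the newborn cells.

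**Figure D5:**
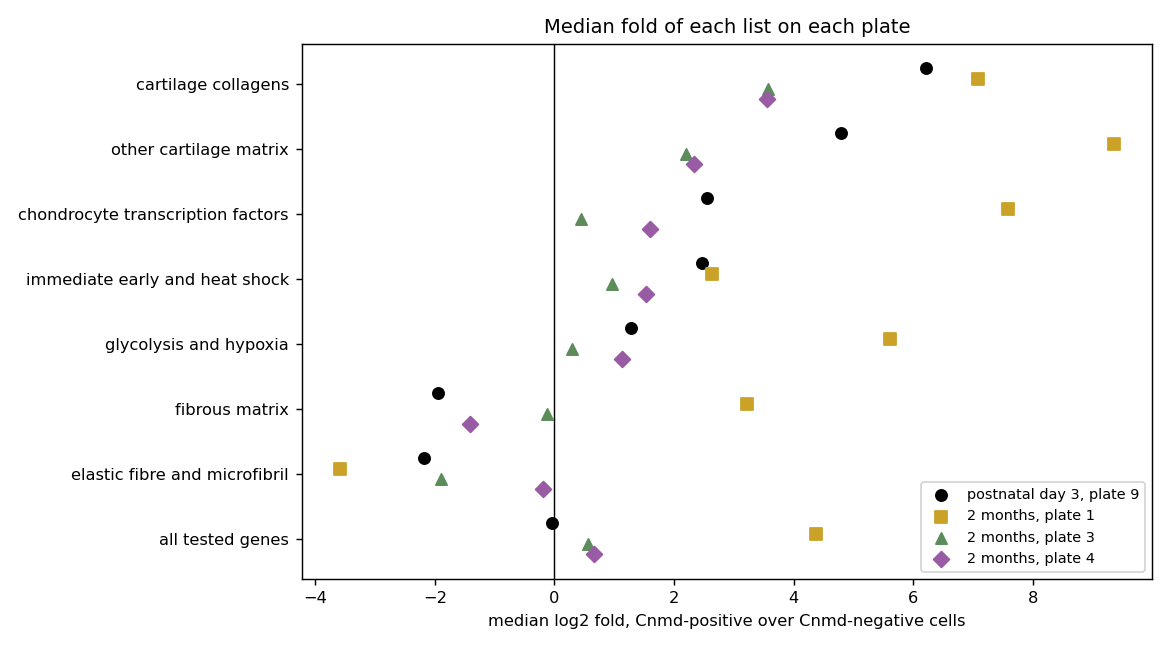
Median log2 fold (x axis, Cnmd-positive over Cnmd-negative cells) of 7 gene lists and of all tested genes (rows) on the newborn plate and on each 2-month plate (symbols). Cartilage collagens lie at 6.20 on the newborn plate and at 7.08, 3.57 and 3.55 at 2 months, while fibrous matrix lies at -1.95 and at 3.23, -0.12 and -1.41. All tested genes lie at -0.05 and at 4.38, 0.56 and 0.65.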

How the data were processed

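The authors used bcl2fastq 2.18, STAR 2.4, RSEM 1.2.21 and the build GRCm38.p6, per the submitters' processing notes; the annotation release is not given in the sources used here. The deposited table holds expected counts per gene symbol, which were rounded to whole numbers (14.3% of values above 0 were not whole). Of its 671 columns, 382 (plates 9, 1, 3 and 4) were used and matched to samples through the plate, the well and the index pair in their names; 1 column matched no sample. No index pair of plate 9 recurs on another plate. The 92 spike-in rows were kept out of totals, and rows named by a number were not named. RSEM shares reads among near-identical genes, and overlapping or antisense genes cannot be told apart without strand.

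Class means, folds and the rule of size were computed with Python 3.11.15, numpy 2.4.6, pandas 2.3.3 and scipy 1.17.1, and TMM factors with edgeR 4.0.16 in R 4.3.3; the rule was tested on simulated cells. For shares of cells, each cell was thinned once to 50000 reads. No doublet caller was run on these sorted wells. Figures were drawn with matplotlib 3.10.9. Gene coordinates come from GENCODE annotation of GRCm38, promoters from RefSeq. Named genes are members of the gene lists and the 15 highest and 15 lowest folds that stay at least 2-fold without the highest cell, at 50 CPM or more and in at least 40% of thinned cells; predicted genes are not named. The classes, lists and rules were chosen with earlier results of these data known. Alternatives were another class mean, depth, Cnmd limit, cell filter, pseudocount, scaling, gene minimum and share of cells. The removal of the 3 cells that stand apart, the removal of cells with Xist, and the TATAAA search were chosen after seeing the data. CPM measured from 1 cell includes dropout, so a 0 does not show that a gene is silent. Per-gene levels are not length-corrected, so levels are compared between cells and not between genes.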

Additional observations from a re-analysis of the deposited data

Results flagged for a closer look

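The 4 genes below were past the rule of size in newborn cells and lay at least 2-fold on the opposite side on all 3 plates of 2 months; the difference between the ages was not tested. They are 1 of 73 named newborn-higher genes and 3 of 21 named newborn-lower genes at 10 CPM or more on all 3 plates. Of all newborn-lower calls 67.6%, 30.1% and 27.9% were at least 2-fold higher on plates 1, 3 and 4, against 70.2%, 44.5% and 46.2% of all genes, so a turn from lower to higher was common there. Of newborn-higher calls 8.97%, 18.9% and 13.6% were at least 2-fold lower, against 21.9%, 27.9% and 28.5% of all genes. Lgr6, an R-spondin receptor, had a log2 fold of 8.31 at postnatal day 3 (316 CPM in positive cells, 0 reads in negative cells, so that the fold is set by the added 1 CPM), and at 2 months was at 0 against 58.3 CPM, 8.96 against 214.6 CPM and 5.87 against 28.8 CPM on plates 1, 3 and 4. Ctsk, the protease cathepsin K, had a log2 fold of -2.11 (48.7 against 214.3 CPM), and at 2 months was at 144.9 against 0 CPM, 178.5 against 0.21 CPM and 122.6 against 0 CPM. Loxl2, a cross-linking oxidase, had a log2 fold of -1.56 (92.6 against 274.7 CPM), and was at 236.5 against 37.5 CPM, 178.3 against 36.99 CPM and 192.5 against 0 CPM; its log2 fold of 2.63 on plate 1 lies below the median of 4.38 of all genes there. Col12a1, a collagen of fibrous tissue, had a log2 fold of -1.10 (904 against 1934 CPM), and was at 1523 against 0 CPM, 554 against 167.6 CPM and 896 against 393 CPM. The newborn call of Col12a1 is close to the limit, with -0.995 under TMM scaling and -0.92 without its highest cell.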

How the results depend on the processing

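Of the 318 tested list and named genes, only those past the rule could lose a call, so 318 is not the base for losses. Changes of side were likewise counted only for genes past the rule. The fold of a gene not past it could change sign without being counted, as that of Tpx2 did without the 3 cells that stand apart. Across 13 alternatives 0 of the genes past the rule changed side, and at most 17 lost their call (without the highest cell of each gene). Among all genes, leaving out the highest cell kept 385 of the 498 higher calls and 365 of the 596 lower calls. Another Cnmd limit (100 CPM, or any read) gave identical classes, and the lower gene minimum and no minimum share only loosened the rule. None of these alternatives could remove a call. Without a minimum share of cells, 2758 genes were higher and 2723 lower, and without the highest cell per gene 366 were lower. The 2000-gene and 200000-read filter gave 581 higher and 748 lower, of which 351 and 409 are shared with the 498 and 596. With that filter the median of immediate early and heat shock genes was 1.803, and with 10 CPM added it was 1.76, when that of other cartilage matrix was 3.60. Without the 3 cells that stand apart, the medians were 11.27 for cartilage collagens, 7.06 for other cartilage matrix and 4.44 for immediate early and heat shock genes. Since K17 was picked by Col9a1, the cartilage medians rise in part by that choice. In cells without an Xist read the elastic fibre median was -3.81. Medians that changed sign were those of Schwann cell genes, of surface proteins used in sorts and of hypertrophic genes. The first went from -5.01 to 2.47 with the 2000-gene filter and to 2.83 without the 3 cells. The second went from -1.47 to 0.24 without the highest cells, and the third from 4.93 to -3.39 without Xist cells. TMM scaling moved the median of all genes from -0.05 to 0.07 and gave 546 higher and 533 lower. The cause of these shifts was not tested. The 2000-gene and 200000-read filter also left fewer cells, 29 positive and 18 negative. No paired analysis was possible because the plate is 1 sample and no test was made.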

Other observations

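Of 18 tested cell cycle genes 1, the replication helicase subunit Mcm6, was past the rule (166.9 against 54.98 CPM), and its log2 fold was 0.09 in cells without an Xist read. The summed level of the list had a median of 176.8 CPM in positive and 66.3 CPM in negative cells. The mitotic genes Mki67 and Top2a had reads in 4.76% of thinned positive cells each, against 7.69% and 3.85% of negative cells. Contractile genes were divided: Cspg4, the proteoglycan NG2, was at 525 against 164.04 CPM, and Myl9 at 26.2 against 353 CPM. Well C09 alone held Myl9 at 6822 CPM, and without the 3 cells that stood apart its log2 fold was -1.93 in place of -3.70. Cxcl12, a marrow niche chemokine, was at 75.98 against 506 CPM and Ebf1, a stromal transcription factor, at 3.87 against 346 CPM. The matrix protease Mmp14 was at 603 against 1241 CPM, a call lost under 4 of 13 alternatives (log2 folds -0.96 to -0.91), and the inhibitor Timp2 at 768 against 1873 CPM, while Mmp13, the collagenase of the hypertrophic zone, had 0 reads in both classes. Well G01 held, at 0 reads of Cnmd, both Postn at 9044 CPM and Col2a1 at 803 CPM, with Comp at 1408, Wif1 at 5436 and Tnmd at 6158 CPM.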
